A study of Mus musculus with 8 samples.

Results

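The genes of oxidative phosphorylation were followed through RNA-seq counts of 8 subcutaneous tumors grown in mice. They were taken as every row of the deposited table annotated with the KEGG pathway of that name, together with the 13 protein-coding genes of mitochondrial DNA, leaving out the vacuolar ATPase genes whose names start with Atp6v or Atp6ap. This gave 117 of the 25766 rows of the table. Of these, 82 are nuclear genes for subunits of complexes I to V, 13 are subunits encoded by mitochondrial DNA (mt-encoded), and 22 are no named subunit (4 assembly factors of complex IV and 18 others). The filter on low counts left 104 members, among them 78 of the nuclear and all 13 mt-encoded subunits. The nuclear subunits below the filter were Cox6b2, Cox7b2, Cox8b and Cox8c.

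MC38-OVA cells, from a colon adenocarcinoma of the mouse and made to carry ovalbumin as a model antigen, were used to grow the tumors. Cells of the 4 shXBP1 tumors carried a hairpin against Xbp1, whose product is a transcription factor that acts when unfolded proteins build up in the endoplasmic reticulum, and cells of the 4 shNT tumors carried the control hairpin of the same name. Both kinds of cells were injected under the skin of female mice, whose strain is written C57BL/6J in 1 label and C57BL/5J in another. The labels of the samples name MC38-OVA, while the protocol for RNA extraction, which all samples share, reads B16-OVA or MC38-OVA (B16 is a melanoma line of the mouse). The labels give no age, do not say which promoter drives the hairpin or whether the cells are 1 clone, and do not tell how many mice the tumors stand for; p-values thus reflect how much these tumors vary. RNA was taken from whole tumors and so includes host cells. In such samples fewer cells of a type and less RNA per cell cannot be told apart.

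Oxidative phosphorylation takes place in the inner mitochondrial membrane. Complexes I and II take electrons from NADH and succinate, complex III passes them to cytochrome c, and complex IV hands them to oxygen. Complexes I, III and IV pump protons as they do so, and complex V, the ATP synthase, makes ATP from the returning flow. The subunits are made from both genomes: nuclear genes are transcribed in the nucleus and their proteins imported, while a handful of core subunits are encoded by mitochondrial DNA, which is transcribed as long strands that are cut into single messages. Complex II is encoded by nuclear genes alone.

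Total counts lay between 29070605 and 36012997 per tumor. Xbp1 itself fell to 70.9 ± 9.61 CPM (counts relative to the scaled total of each library) in shXBP1 tumors, against 101 ± 5.96 CPM in shNT tumors (SD, n = 4 each), and the groups did not overlap. Over all genes, 4475 of 14907, or 30.0%, passed the quasi-likelihood test of edgeR at an adjusted p (Benjamini-Hochberg) of 0.05, with 16.9% higher and 13.1% lower in shXBP1 tumors. All 5 leukocyte markers, all 5 T cell markers and all 5 macrophage markers were higher, as were 3 of 5 fibroblast and 3 of 5 endothelial markers. The summed leukocyte markers lay between 601 and 1038 CPM in shXBP1 tumors, against 279 to 388 CPM in shNT tumors. The 5 epithelial markers, which a colon carcinoma might hold, summed to between 7.39 and 10.6 CPM in shXBP1 tumors and between 5.62 and 7.88 CPM in shNT tumors. Krt8 and Krt18 among them were below the filter. None of the 8 skeletal muscle markers passed, and their sum lay between 16.8 and 80.9 CPM in shXBP1 tumors, against 13.2 to 44.4 CPM in shNT tumors.

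Most subunit genes of the respiratory chain did not pass the test, and none passed as higher in shXBP1 tumors. Of the 78 nuclear subunits tested, 4 fell: Ndufv1 of complex I, Cox7a2l of complex IV, and Atp5a1 and Atp5b of complex V. That is 5.13%, against the 30.0% of all genes called. At an unadjusted p below 0.05 there were 8 lower and 3 higher nuclear subunits. None of the 13 mt-encoded genes passed, either with edgeR or with DESeq2, and none had an unadjusted edgeR p below 0.05. The median log2 fold change, shXBP1 over shNT, was 0.04 over the nuclear and -0.01 over the mt-encoded subunits, beside -0.01 over all genes. A p above the threshold does not show equality, so the intervals matter: the 95% interval of the fold change lay within 1.5-fold in either direction for 63 of the 78 nuclear and 9 of the 13 mt-encoded subunits.

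**Figure D1:**
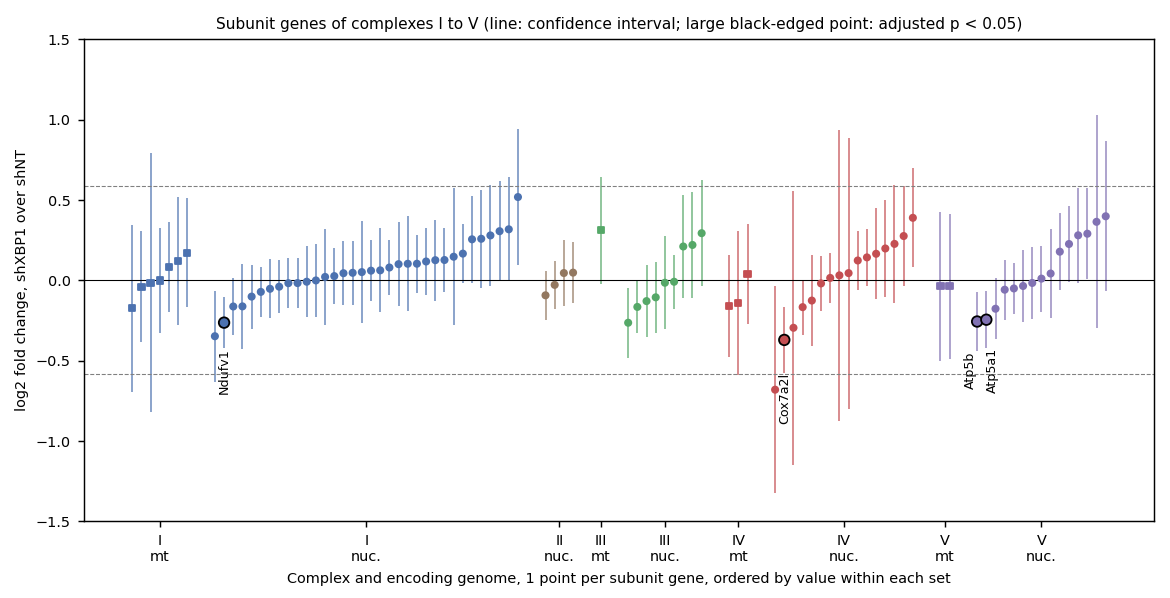
log2 fold change of each tested subunit gene, shXBP1 over shNT, with its 95% interval, grouped by complex and by encoding genome (squares mt-encoded, circles nuclear). Dashed lines mark 1.5-fold in either direction, and the 4 nuclear subunits that passed the test, all lower in shXBP1 tumors, are large, black-edged and named.

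In the authors' deposited table, which rests on DESeq2, the same 4 nuclear subunits had an adjusted p below 0.05 on the lower side, and 2 (Ndufa3 and Cox7a2) on the higher side, among 76 with a value. The groups did not overlap for 5 nuclear subunits, those 4 and Sdha, which did not pass. Over all genes tested, groups did not overlap for 30.2%.

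The 13 genes of mitochondrial DNA took 2.15%, 3.13%, 2.78% and 2.01% of all counts in shXBP1 tumors 1 to 4, against 2.67%, 2.28%, 2.69% and 2.19% in shNT tumors 1 to 4. The means were 2.52% ± 0.527 in shXBP1 tumors and 2.46% ± 0.256 in shNT tumors (SD, n = 4 each). Both the highest and the lowest share belonged to shXBP1 tumors, so the groups overlapped throughout. The 82 nuclear subunits together took 0.796%, 0.867%, 0.831% and 0.796% of counts in shXBP1 tumors and 0.861%, 0.777%, 0.839% and 0.833% in shNT tumors.

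By level per length, the subunits of mitochondrial DNA stood far above the nuclear ones. The median over genes of the authors' group-mean FPKM (a count scaled to gene length and library size) was 1717 in shXBP1 tumors and 1385 in shNT tumors for mt-encoded subunits, and 74.5 in shXBP1 tumors and 72.6 in shNT tumors for the nuclear ones. Both mt-encoded medians are the level of 1 gene, mt-Cytb. Of the 13 mt-encoded genes, 8 had a negative log2 fold change, and the median was -0.01. The highest level of all was that of mt-Co1, the catalytic subunit of complex IV, with a mean of 5361 FPKM in shXBP1 tumors and 5224 FPKM in shNT tumors. It had 8107, 11757, 10313 and 7449 CPM in shXBP1 tumors, against 10394, 8539, 9362 and 8284 CPM in shNT tumors. Its lowest and highest tumors were both of the shXBP1 group, and the log2 fold change was 0.04 ± 0.14 (SE).

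The other core subunits of complex IV, mt-Co2 and mt-Co3, had log2 fold changes of -0.16 ± 0.15 and -0.14 ± 0.20. mt-Cytb, the cytochrome b of complex III, had the largest value among the genes of mitochondrial DNA, 0.31 ± 0.15 with an adjusted p of 0.147 in the edgeR fit. It had 1819, 2782, 2583 and 1739 CPM in shXBP1 tumors, against 1845, 1621, 2053 and 1666 CPM in shNT tumors. shXBP1 tumors 2 and 3 lay above every shNT tumor, while shXBP1 tumors 1 and 4 lay within the shNT range.

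Among the 7 complex I subunits of mitochondrial DNA, which form the proton-pumping membrane arm, log2 fold changes ran between -0.17 for mt-Nd4l and 0.17 for mt-Nd4, with a median of -0.00. mt-Nd1, mt-Nd2, mt-Nd5 and mt-Nd6 had -0.04, -0.00, 0.08 and 0.12. mt-Nd3 varied most: it had 188, 291, 209 and 85.6 CPM in shXBP1 tumors, against 211, 153, 241 and 177 CPM in shNT tumors, with a 95% interval between -0.82 and 0.79. A difference inside that interval could not be seen for mt-Nd3 with these tumors. The ATP synthase subunits mt-Atp6 and mt-Atp8 both had -0.04. Their genes overlap by 43 bases, as mt-Nd4l and mt-Nd4 do by 7, and mt-Nd5 and mt-Nd6 lie on opposite strands and overlap by 14. Whether counting used the strand is not given in the sources read, so reads in those overlaps cannot be assigned, and nuclear copies of mitochondrial DNA could share reads with these genes.

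**Figure D2:**
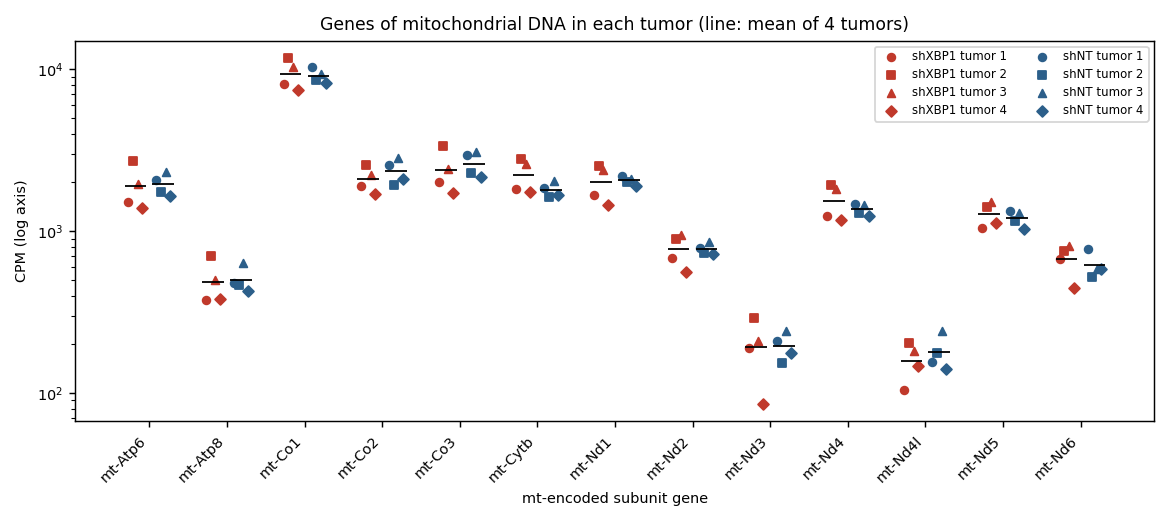
Level of each mt-encoded subunit gene in every tumor, in CPM on a log axis, with shXBP1 tumors in red and shNT tumors in blue and a line at each group's mean. The groups overlap for all 13 genes, and shXBP1 tumor 2 is the highest of its group for 10 of them and shXBP1 tumor 4 the lowest for 10.

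The genes of mitochondrial DNA moved together from tumor to tumor within a group. shXBP1 tumor 2 was the highest of its group for 10 of the 13 and shXBP1 tumor 4 the lowest for 10, while shNT tumor 4 was the lowest of its group for 9. Their mean log2 CPM was 9.92, 10.5, 10.3 and 9.73 in shXBP1 tumors, against 10.2, 10.0, 10.3 and 9.98 in shNT tumors. In the shXBP1 group the order of the tumors was the order of Ptprc (CD45, carried by leukocytes), which had 156, 193, 171 and 94.8 CPM there, against 59.4, 42.6, 66.5 and 56.4 CPM in shNT tumors. Across groups it was not, since Ptprc was higher in every shXBP1 tumor than in any shNT tumor and the mt-encoded genes overlapped. The part of leukocytes in these levels was not tested.

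In complex I, the NADH dehydrogenase, 1 of the 34 nuclear subunits tested fell and 33 did not pass, with a median log2 fold change of 0.06. The one that fell was Ndufv1 (ENSMUSG00000037916, chromosome 19, 4007384 to 4012806 of GRCm38), the subunit that binds NADH and holds the flavin that first takes its electrons. It had 62.4, 65.2, 66.2 and 70.1 CPM in shXBP1 tumors, against 75.1, 81.3, 80.0 and 80.2 CPM in shNT tumors. Every shXBP1 tumor lay below every shNT tumor, 1.20-fold on average (log2 fold change -0.26 ± 0.07, adjusted p = 0.0165 in the edgeR fit). The call was lost without shNT tumor 3, where the adjusted p was 0.0580.

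The partner of Ndufv1 in the NADH-oxidising module, Ndufv2, had a log2 fold change of 0.06, and the iron-sulfur subunit Ndufs1 had -0.10. Of the core subunits that lead electrons towards ubiquinone, Ndufs3, Ndufs7 and Ndufs8 had 0.03, -0.02 and 0.00, and for each the 95% interval lay within 1.5-fold. Ndufb9, an accessory subunit, had the highest level per length of the nuclear subunits of the complex and a log2 fold change of -0.16. Its levels were 115, 112, 106 and 97.9 CPM in shXBP1 tumors, against 133, 112, 117 and 121 CPM in shNT tumors.

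The widest values belonged to small accessory subunits. Ndufa3 had 21.1, 25.2, 22.8 and 12.6 CPM in shXBP1 tumors, against 15.4, 11.6, 13.4 and 16.6 CPM in shNT tumors. shXBP1 tumors 1 to 3 lay above every shNT tumor and shXBP1 tumor 4 below 3 of them, and the log2 fold change of 0.52 ± 0.19 had an adjusted p of 0.0643 in the edgeR fit. Ndufc2, at the other end, had 29.4, 38.5, 38.9 and 25.9 CPM in shXBP1 tumors, against 45.7, 37.4, 44.1 and 41.5 CPM in shNT tumors (log2 fold change -0.35 ± 0.13, adjusted p = 0.0632, edgeR). Ndufab1, the mitochondrial acyl carrier protein that also sits in complex I, had -0.05.

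The 4 genes of complex II, the succinate dehydrogenase, gave log2 fold changes between -0.09 and 0.05, and all 4 intervals lay within 1.5-fold. Sdha, the flavoprotein that oxidises succinate, had 150, 168, 166 and 167 CPM in shXBP1 tumors, against 173, 172, 179 and 170 CPM in shNT tumors. The groups did not overlap, but the difference was 1.07-fold and the adjusted p was 0.350 in the edgeR fit. Sdhb, the iron-sulfur subunit, and Sdhc and Sdhd, the membrane anchors, had 0.05, -0.03 and 0.05.

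In complex III none of the 9 nuclear subunits passed, with a median of -0.01. Uqcrc1, a core subunit facing the matrix, had 128, 121, 117 and 159 CPM in shXBP1 tumors, against 149, 168, 164 and 150 CPM in shNT tumors (log2 fold change -0.26 ± 0.10, adjusted p = 0.0642, edgeR). shXBP1 tumor 4 lay within the shNT range and the other 3 lay below it. Cyc1, the cytochrome c1 of the complex, averaged 124 ± 8.99 CPM in shXBP1 tumors and 139 ± 5.17 CPM in shNT tumors (SD, n = 4 each; adjusted p = 0.121, edgeR). Uqcrfs1, the Rieske iron-sulfur protein, and Uqcrc2 had log2 fold changes of -0.01 and -0.11. Uqcrh, the small hinge subunit and the most abundant per length, had 111, 135, 129 and 85.8 CPM in shXBP1 tumors, against 105, 72.6, 95.0 and 103 CPM in shNT tumors.

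In complex IV, the cytochrome c oxidase, 1 of the 16 nuclear subunits tested fell. This was Cox7a2l (ENSMUSG00000024248, chromosome 17, 83501918 to 83517330), also known as SCAF1, a protein related to Cox7a. It has been described as joining complex III to complex IV in supercomplexes, and whether it does so in these tumors was not tested. Cox7a2l had 135, 130, 126 and 109 CPM in shXBP1 tumors, against 173, 140, 158 and 175 CPM in shNT tumors. The groups did not overlap, and the level was 1.29-fold lower (log2 fold change -0.37 ± 0.09, adjusted p = 0.0107 in the edgeR fit). Cox7a2l was the one subunit with an adjusted p below 0.05 in each alternative fit run on these counts, with any 1 tumor left out and with Ptprc as a covariate. With that covariate the adjusted p was just below the threshold (0.0497, edgeR), and the log2 fold change was -0.78 ± 0.19.

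Cox7a2, the Cox7a isoform found in most tissues, gave the highest log2 fold change of complex IV, 0.39 ± 0.14, and did not pass (adjusted p = 0.0565, edgeR). It had 91.8, 124, 98.4 and 75.9 CPM in shXBP1 tumors, against 87.0, 63.2, 71.0 and 76.2 CPM in shNT tumors, with shXBP1 tumor 4 within the shNT range. Cox4i1, the most abundant nuclear subunit of the complex per length, averaged 265 ± 18.3 CPM in shXBP1 tumors and 297 ± 14.3 CPM in shNT tumors (SD, n = 4 each; log2 fold change -0.17 ± 0.08, adjusted p = 0.132, edgeR). Cox5a and Cox5b had -0.02 and 0.12.

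Complex IV has isoforms that are restricted in most mammals to muscle, heart, lung or testis. They were near absent in both groups of tumors. Cox6a2, the heart and muscle form, had a mean of 1.57 FPKM in shXBP1 tumors and 2.52 FPKM in shNT tumors, beside 310 FPKM in shXBP1 tumors and 280 FPKM in shNT tumors for the common form Cox6a1. Cox7a1, also a heart and muscle form, had 1.32 FPKM in shXBP1 tumors and 1.63 FPKM in shNT tumors. Cox4i2, best known from lung, had 0.901 FPKM in shXBP1 tumors and 0.872 FPKM in shNT tumors, beside 314 FPKM of Cox4i1 in shXBP1 tumors and 352 FPKM in shNT tumors. Cox8b and Cox6b2 stayed under 0.5 FPKM in both groups, and Cox7b2 and Cox8c were listed at 0. Ndufa4l2, a relative of the complex IV subunit Ndufa4 that hypoxia is known to induce, had 1.86 FPKM in shXBP1 tumors and 1.78 FPKM in shNT tumors, beside 60.1 FPKM in shXBP1 tumors and 65.5 FPKM in shNT tumors for Ndufa4. Of these restricted forms, Cox6a2, Cox7a1, Cox4i2 and Ndufa4l2 could be tested and none passed.

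In complex V, 2 of the 15 nuclear subunits fell, or 13.3%, near the 13.1% of all genes that were lower. These 2 encode the alpha and beta chains whose hexamer is the catalytic head of the ATP synthase. Atp5b, the beta chain (ENSMUSG00000025393, chromosome 10, 128083273 to 128090391), had 667, 693, 692 and 815 CPM in shXBP1 tumors, against 854, 862, 888 and 819 CPM in shNT tumors. Atp5a1, the alpha chain, had 636, 670, 681 and 764 CPM in shXBP1 tumors, against 846, 809, 808 and 795 CPM in shNT tumors. For both, shXBP1 tumor 4 lay closest to the shNT tumors and the groups did not overlap. The log2 fold changes were -0.26 ± 0.09 for Atp5b (adjusted p = 0.0389) and -0.24 ± 0.08 for Atp5a1 (adjusted p = 0.0385), both in the edgeR fit. Both calls were lost when any 1 of the other 7 tumors was left out and kept without shXBP1 tumor 4; over the 8 such fits the adjusted p ran between 0.00815 and 0.129 for Atp5b and between 0.0127 and 0.102 for Atp5a1.

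The central stalk subunits Atp5c1 (gamma) and Atp5d (delta) had log2 fold changes of -0.06 and -0.18, and Atp5e (epsilon), the smallest, had 0.40 ± 0.21. Atp5e had 110, 113, 92.4 and 61.0 CPM in shXBP1 tumors, against 76.8, 51.9, 70.6 and 85.9 CPM in shNT tumors, and did not pass (adjusted p = 0.182, edgeR). The peripheral stalk subunits Atp5f1, Atp5h, Atp5j and Atp5o had -0.02, 0.29, 0.18 and 0.01. The genes Atp5g1, Atp5g2 and Atp5g3 encode the same c subunit of the membrane rotor. Per length Atp5g2 was the highest of them with 182 FPKM in shXBP1 tumors and 185 FPKM in shNT tumors, followed by Atp5g3 with 158 FPKM in shXBP1 tumors and 164 FPKM in shNT tumors, and by Atp5g1 with 75.4 FPKM in shXBP1 tumors and 64.8 FPKM in shNT tumors. Atp5g1, which is known to set the amount of ATP synthase in mouse brown fat, had a log2 fold change of 0.23 ± 0.11 (adjusted p = 0.139, edgeR).

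shXBP1 tumor 4 was the lowest of its group for 52 of the 78 nuclear subunits, and shNT tumor 2 for 58. The highest of its group was shXBP1 tumor 2 for 44 of them, and shNT tumor 1 for 36. shXBP1 tumor 4 was also the lowest of its group in Ptprc, and shNT tumor 2 was the lowest of all tumors in it. Without shXBP1 tumor 4 the fit called 35.1% of all genes, with 2904 higher and 2401 lower of 15101. Of the 78 nuclear subunits it called 26.9%, a smaller share, with 15 higher and 6 lower. The 15 were Ndufa3, Ndufa5, Ndufb2 and Ndufc1 of complex I, Uqcrh of complex III, Cox6b1, Cox6c, Cox7a2 and Cox7c of complex IV, and Atp5e, Atp5g1, Atp5h, Atp5j, Atp5k and Atp5l of complex V. The 6 were Ndufv1, Cyc1, Uqcrc1, Cox7a2l, Atp5a1 and Atp5b. Without that tumor Ndufa3 had a log2 fold change of 0.70 ± 0.13 (adjusted p = 0.00117, edgeR) and mt-Cytb had 0.42 ± 0.14 (adjusted p = 0.0319, edgeR), the one mt-encoded gene to pass. Leaving out shNT tumor 2 gave 0 higher and 2 lower nuclear subunits, Cox7a2l and Ndufv1.

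With log2 CPM of Ptprc as a covariate the values turned. The median log2 fold change was then -0.41 over the nuclear and -0.90 over the mt-encoded subunits, beside 0.01 over all genes. In that fit 1.61% of all genes passed, with 5 nuclear subunits lower (Ndufa2, Ndufb5, Ndufc2, Cox7a2l and Cox7c) and 3 mt-encoded genes lower (mt-Nd3, mt-Co2 and mt-Co3). Since Ptprc separated the groups with no overlap, group and covariate could hardly be told apart, and the median standard error over all genes was 0.252, against 0.122 without the covariate. Of 36 named genes called in the fit without it, Xbp1, Cox7a2l and Mrpl11 kept their call, so that Ndufv1, Atp5a1 and Atp5b lost theirs, with log2 fold changes of -0.12, -0.04 and -0.01.

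Among the nuclear subunits the size and sign of the difference went with the length of the coding sequence. Across the 78 genes, Spearman's rho between longest coding length (GENCODE M21) and log2 fold change was -0.55, and it was -0.73 in complex I, -0.53 in complex III, -0.50 in complex IV and -0.81 in complex V. Across 13514 genes tested with a coding length it was -0.06. The split at 600 bases was chosen after the values were seen. Of 58 nuclear subunits up to 600 bases, 40 had a positive log2 fold change and the median was 0.10, while of the 20 longer ones 6 were positive and the median was -0.04. Of the 4 that fell, 3 are among the longer (Ndufv1, Atp5a1 and Atp5b), and Cox7a2l has 402 bases. Genes of a fit share the same tumors and are not independent, so these are descriptions. The proteins of the mitochondrial ribosome gave -0.54 over 78 genes. Over all genes tested with a coding length, 982 of the 1786 up to 600 bases had a positive log2 fold change, with a median of 0.04. Of the 11728 longer ones 5686 were positive, with a median of -0.01. The cytosolic ribosomal protein genes, a list added after values were seen, have a median coding length of 468 bases. Of 77 tested, 38 fell and 0 rose (49.4% called, beside 30.0% of all genes), with a median log2 fold change of -0.35.

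**Figure D3:**
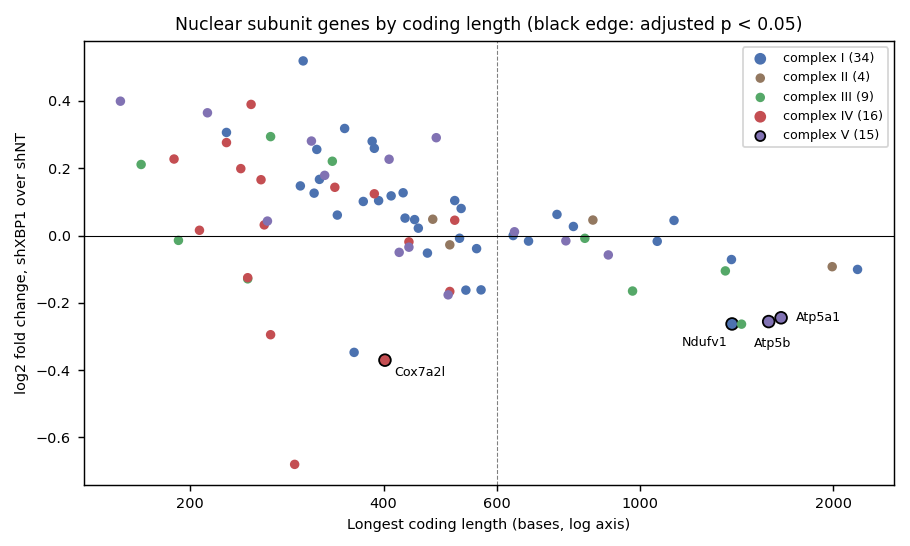
log2 fold change of the 78 tested nuclear subunit genes, shXBP1 over shNT, against their longest coding length in bases on a log axis, coloured by complex. Points fall off to the right, with a Spearman's rho of -0.55, and 3 of the 4 black-edged genes that passed, all lower, lie beyond the dashed line at 600 bases.

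The relation held without shXBP1 tumor 4 (rho -0.54) and changed sign with Ptprc as a covariate (rho 0.52). Across all genes tested with a coding length, rho was -0.11 without that tumor and 0.245 with the covariate. For the mitochondrial ribosome it was -0.59 and 0.22, so the change of sign was not particular to the subunits. By tumor, short subunits had a mean log2 CPM of 5.79, 5.92, 5.85 and 5.57 in shXBP1 tumors, against 5.81, 5.50, 5.76 and 5.78 in shNT tumors. Long subunits had 6.79, 6.97, 6.93 and 6.87 in shXBP1 tumors, against 7.02, 6.94, 6.99 and 6.93 in shNT tumors. shXBP1 tumor 4 and shNT tumor 2 were thus the low ones of their groups for short subunits, and not for long ones. shXBP1 tumor 4 was the lowest of its group for 46 of the 58 short subunits and shNT tumor 2 for 52. The labels give no measure of RNA quality, and its part was not tested.

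**Figure D4:**
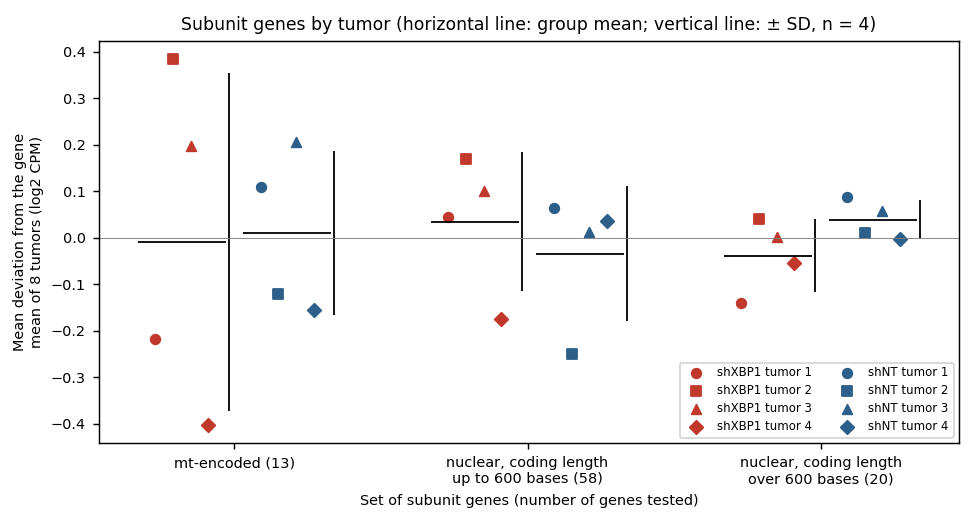
Mean deviation of each set of subunit genes from the gene means over all 8 tumors, in log2 CPM, per tumor, with shXBP1 tumors in red and shNT tumors in blue; horizontal lines are group means and vertical lines ± SD (n = 4). Short nuclear subunits are lowest in shXBP1 tumor 4 and shNT tumor 2, and mt-encoded genes spread widest among shXBP1 tumors.

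Of the members that are no named subunit, 4 passed. Cox10, which farnesylates heme on its way into complex IV (ENSMUSG00000042148, chromosome 11, 63962627 to 64079468), fell to 15.8 ± 2.19 CPM in shXBP1 tumors, against 22.7 ± 2.89 CPM in shNT tumors (SD, n = 4 each; log2 fold change -0.52 ± 0.13, adjusted p = 0.00920, edgeR). Its tumors had 16.6, 13.3, 14.9 and 18.35 CPM in the shXBP1 group, against 18.43, 24.5, 23.3 and 24.5 CPM in the shNT group, so the groups met at shXBP1 tumor 4 and shNT tumor 1 without overlapping. With Ptprc as a covariate the log2 fold change of Cox10 was -0.02 and did not pass (adjusted p = 0.983, edgeR). Cox17, the copper chaperone of the same complex (chromosome 16, 38346991 to 38352763), rose: it had 63.1, 67.1, 61.7 and 42.2 CPM in shXBP1 tumors, against 44.9, 33.1, 43.0 and 41.5 CPM in shNT tumors. shXBP1 tumor 4 lay within the shNT range, and the log2 fold change was 0.53 ± 0.14 (adjusted p = 0.0158, edgeR). Without shXBP1 tumor 1 the adjusted p of Cox17 was 0.0505. With Ptprc as a covariate its log2 fold change was -0.43 and did not pass. The other assembly factors among the members, Cox11 and Cox15, which act in copper delivery and heme A synthesis, both had values near 0 (0.03 and 0.02).

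Ppa2, the mitochondrial pyrophosphatase (chromosome 3, 133310110 to 133378235), had the smallest p of the members that fell. It had 25.1, 26.0, 27.8 and 27.7 CPM in shXBP1 tumors, against 39.2, 33.9, 35.3 and 36.2 CPM in shNT tumors, 1.36-fold lower with no overlap (log2 fold change -0.44 ± 0.08, adjusted p = 0.00214, edgeR). Its cytosolic counterpart Ppa1 had a log2 fold change of -0.01. Tcirg1, a membrane subunit of the vacuolar proton pump that stays in the set because of its name, rose 1.71-fold (adjusted p = 0.000198, edgeR), with 250, 228, 230 and 196 CPM in shXBP1 tumors, against 128, 151, 114 and 135 CPM in shNT tumors. Tcirg1 is best known from osteoclasts and immune cells. The leukocyte markers were higher in the same tumors, and the part of leukocytes in the level of Tcirg1 was not tested. With Ptprc as a covariate Tcirg1 had a log2 fold change of 0.75 and Ppa2 one of -0.43, and neither then passed (adjusted p = 0.135 and 0.309, edgeR).

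Of 4 loci that have no symbol but an ID starting Mus_musculus_newGene and could be tested, none passed in the edgeR fit. Mus_musculus_newGene_6018, which the table annotates as a beta subcomplex subunit of complex I, had 28.8, 39.1, 32.7 and 16.3 CPM in shXBP1 tumors, against 21.5, 13.7, 18.4 and 19.4 CPM in shNT tumors (log2 fold change 0.68 ± 0.25, adjusted p = 0.0651, edgeR). In the authors' deposited table, which rests on DESeq2, Mus_musculus_newGene_6018 has an adjusted p of 0.0105. Mus_musculus_newGene_3165, annotated as a proteolipid of the vacuolar ATPase, had 0.542, 51.1, 57.4 and 2.38 CPM in shXBP1 tumors and 11.7, 0.284, 0.450 and 0.530 CPM in shNT tumors, so that 2 tumors hold nearly all of its counts. Gm11273 is annotated as a copy of Cox5b with which it could share reads. It had a log2 fold change of 0.16, beside 0.12 for Cox5b.

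Around the subunits, the lists of other mitochondrial and energy genes are read against the 16.9% of all genes that were higher and the 13.1% that were lower, 30.0% called in all. The members and these lists were chosen with earlier results of these data known, so their counts are descriptions. Of 23 assembly genes of complex IV tested, 3 rose and 3 fell: Cox17, Pet100 and Coa5 rose, with log2 fold changes of 0.53, 0.61 and 0.25, and Cox10, Taco1 and Sco1 fell, with -0.52, -0.48 and -0.38. Of 17 assembly genes of complex I, Ndufaf3 (0.80) and Dmac1 (0.45) rose, and Acad9 (-0.28) and Ndufaf7 (-0.25) fell. The complex III factor Ttc19 and the complex V factor Atpaf1 fell, with -0.27 and -0.31. Leaving out 1 tumor ended the call of Ttc19 in 5 of 8 fits (adjusted p up to 0.0807, edgeR), that of Atpaf1 in 6 (up to 0.122), and that of Coa5 without shXBP1 tumor 3 or shNT tumor 4 (up to 0.0614). None of the 4 assembly genes of complex II passed. With Ptprc as a covariate Ndufaf3 and Dmac1 had -0.23 and -0.09 and did not pass.

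Of 13 genes for the replication and transcription of mitochondrial DNA, 3 fell and none rose, with a median of -0.20. Tfam, which packages mitochondrial DNA and starts its transcription, had 48.0, 49.8, 50.2 and 48.0 CPM in shXBP1 tumors, against 72.6, 63.4, 62.4 and 61.6 CPM in shNT tumors. The shXBP1 tumors lay within a narrow band below every shNT tumor, 1.33-fold lower (log2 fold change -0.41 ± 0.08, adjusted p = 0.00225, edgeR). Twnk, the helicase of the replication fork, averaged 28.5 ± 3.74 CPM in shXBP1 tumors and 40.2 ± 0.618 CPM in shNT tumors (SD, n = 4 each; adjusted p = 0.00251, edgeR). Tfb2m, the partner of the mitochondrial RNA polymerase, fell by 0.35 on the log2 scale, and the polymerase gene Polrmt had -0.08 and did not pass. The mt-encoded genes had a median of -0.01 in the same tumors. In mitochondrial RNA processing, Tbrg4 and Hsd17b10 fell (-0.45 and -0.37) and the other 12 genes of the list did not pass; Tbrg4 had 0.16 with Ptprc as a covariate and lost its call.

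Of 78 proteins of the mitochondrial ribosome, which translates the mt-encoded messages, 15 fell and 1 rose, or 20.5% called, with a median log2 fold change of -0.08. Mrps27 had the smallest p and fell to 29.3 ± 3.90 CPM in shXBP1 tumors, against 46.3 ± 3.84 CPM in shNT tumors (SD, n = 4 each; log2 fold change -0.66 ± 0.11, adjusted p = 0.000714, edgeR). Mrps9 and Mrpl11 had -0.44 each, and Mrpl38, the one that rose, had 0.29.

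Of 18 genes of the tricarboxylic acid cycle and the pyruvate dehydrogenase, 7 fell, none rose and 11 did not pass (38.9% called, median log2 fold change -0.18). Among the 7 were Suclg2 (-0.43), which makes succinate from succinyl-CoA, Idh3g (-0.31) and Pdhb (-0.31). The call of Idh3g was lost in 5 of the 8 fits that leave out 1 tumor (adjusted p up to 0.0668, edgeR), and that of Pdhb without shNT tumor 3 (0.0545). Of 18 genes listed under glycolysis, 8 fell, none rose and 10 did not pass (44.4% called, median -0.24). The list also holds Pdk1, a kinase that acts on the pyruvate dehydrogenase and is no enzyme of glycolysis. Pgk1, Pdk1 and Ldha fell by 0.61, 0.60 and 0.60 on the log2 scale; Ldha averaged 1034 ± 54.6 CPM in shXBP1 tumors and 1567 ± 204 CPM in shNT tumors (SD, n = 4 each). Of 19 genes for electron carriers and adenine nucleotide carriers, Dhodh (-0.43) and Gpd2 (-0.31) fell, 10.5% called; both feed electrons to ubiquinone from outside complexes I and II. The call of Gpd2 was lost without shNT tumor 3 (adjusted p = 0.0504, edgeR).

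**Figure D5:**
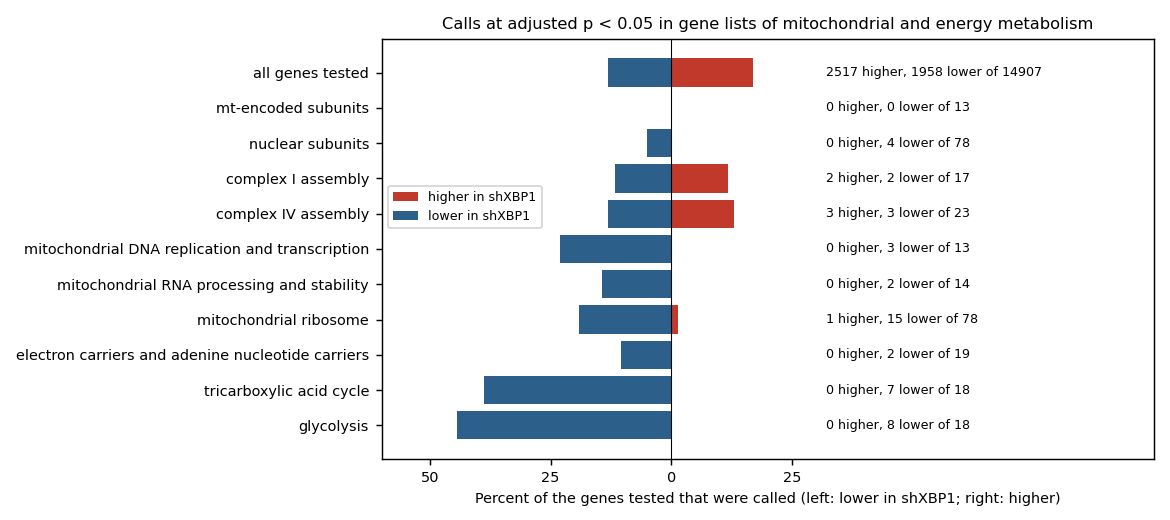
Percent of the tested genes of each list that passed at an adjusted p below 0.05, lower in shXBP1 tumors to the left (blue) and higher to the right (red), with the counts beside each bar. Nuclear subunits have 0 higher and 4 lower of 78, and the genes listed under glycolysis 0 higher and 8 lower of 18.

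Of 9 tested regulators of nuclear respiratory genes, 2 rose and 2 fell. Hif1a, the oxygen-regulated factor that turns cells towards glycolysis, had 217, 268, 253 and 176 CPM in shXBP1 tumors, against 180, 142, 147 and 132 CPM in shNT tumors (log2 fold change 0.60 ± 0.13, adjusted p = 0.00550, edgeR). shXBP1 tumor 4 lay just below the highest shNT tumor. Pgk1, Pdk1 and Ldha, known targets of this factor, were lower in the same tumors. Esrra, an orphan nuclear receptor of respiratory genes, rose by 0.37, and Myc and Gabpa, an ETS factor, fell by 0.49 and 0.32. The call of Gabpa was lost in 4 of the 8 fits that leave out 1 tumor (adjusted p up to 0.0591, edgeR). Nrf1 had -0.17 and Ppargc1b 0.31, and neither passed. Ppargc1a, the co-activator of mitochondrial biogenesis, stayed under 0.2 CPM in every tumor and was below the filter. The signs of Hif1a and Myc changed with Ptprc as a covariate, to -0.10 and 0.15, and neither then passed.

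The choice of members did not use promoter letters, and these are described with no test. RefSeq promoter windows (GRCm38.p6, 250 bases before to 50 after the start) were found for 65 of the 82 nuclear subunits, and both strands were searched. The motif of NRF1, a factor known for respiratory genes, searched as GCGCANGCG, was in 20 of the 65, or 30.8%, beside 7.03% of 27025 genes with a window and 14.5% of the 10484 tested here. The GABPA motif CCGGAAG was in 24.6%, beside 9.93% and 19.4% of the same genes. The YY1 motif ATGGCGG was in 13.8%, beside 4.69% and 9.06%, and the estrogen-related receptor motif AAGGTCA in 12.3%, beside 5.38% and 3.87%. The XBP1 motif CCACGTCA was in none of the 65 windows, beside 0.714% and 1.0%. By complex, the NRF1 motif was in 8 of 30 windows for complex I, 2 of 3 for complex II, 2 of 5 for complex III, 1 of 14 for complex IV and 7 of 13 for complex V.

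To show these letters, 60 bases around the NRF1 motif are given for 1 gene each of complexes I, II, IV and V, 5′ to 3′ on the strand of the gene, with the match in capitals (for Cox6a1 matches on both strands that overlap). They are Ndufs5 (chr4:123718250-123718309, minus strand), Sdhd (chr9:50603894-50603953, minus), Cox6a1 (chr5:115349086-115349145, minus) and Atp5h (chr11:115420026-115420085, minus). None of these genes passed the test; their log2 fold changes were 0.17, 0.05, 0.14 and 0.29.
Ndufs5: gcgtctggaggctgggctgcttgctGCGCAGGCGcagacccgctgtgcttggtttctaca
Sdhd: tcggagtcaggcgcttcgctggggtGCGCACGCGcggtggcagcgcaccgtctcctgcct
Cox6a1: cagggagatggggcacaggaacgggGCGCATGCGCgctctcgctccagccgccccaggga
Atp5h: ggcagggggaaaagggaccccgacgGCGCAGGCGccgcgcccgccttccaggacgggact

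The 3 subunits that fell and have a window, and the assembly factor that fell, are shown beside them, as the 250 bases before the start: Ndufv1 (chr19:4012756-4013005, minus strand), Cox7a2l (chr17:83514334-83514583, minus), Atp5b (chr10:128083057-128083306, plus) and the assembly factor Cox10 (chr11:64079473-64079722, minus). The windows of the 3 subunits held no match to the NRF1, GABPA, estrogen-related receptor or XBP1 letters; that of Atp5b held the YY1 letters within the 50 bases after the start, which are not printed. The window of Cox10 held the GABPA letters 27 bases before the start, in capitals, and the YY1 letters within the bases after the start. The window of Ppa2, which fell and is not printed, held the YY1 letters and none of the other motifs. The window of Cox7a2l lies within the GENCODE span of the gene (83501918 to 83517330). It thus precedes an inner start, and the outermost start is not shown. The windows of Ndufv1 and Atp5b partly overlap the GENCODE spans of their genes (4007384 to 4012806 and 128083273 to 128090391). Their starts too lie inside the span, and the outermost starts fall within the printed bases. A match of letters is not a bound site, and a window without them says nothing of the factor.
Ndufv1: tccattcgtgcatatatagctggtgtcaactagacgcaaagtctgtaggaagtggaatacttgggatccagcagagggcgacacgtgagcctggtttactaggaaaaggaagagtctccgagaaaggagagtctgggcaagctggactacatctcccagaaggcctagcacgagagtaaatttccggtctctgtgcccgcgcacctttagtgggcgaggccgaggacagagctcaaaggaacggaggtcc
Cox7a2l: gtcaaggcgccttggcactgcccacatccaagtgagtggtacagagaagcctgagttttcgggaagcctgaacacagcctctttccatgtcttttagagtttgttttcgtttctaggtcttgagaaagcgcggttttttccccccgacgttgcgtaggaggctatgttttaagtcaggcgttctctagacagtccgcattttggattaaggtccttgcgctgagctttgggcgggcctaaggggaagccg
Atp5b: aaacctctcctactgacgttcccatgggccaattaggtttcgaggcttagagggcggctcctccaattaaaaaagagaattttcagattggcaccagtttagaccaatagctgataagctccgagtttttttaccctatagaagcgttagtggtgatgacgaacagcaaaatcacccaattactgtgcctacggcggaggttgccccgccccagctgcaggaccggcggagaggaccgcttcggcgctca
Cox10: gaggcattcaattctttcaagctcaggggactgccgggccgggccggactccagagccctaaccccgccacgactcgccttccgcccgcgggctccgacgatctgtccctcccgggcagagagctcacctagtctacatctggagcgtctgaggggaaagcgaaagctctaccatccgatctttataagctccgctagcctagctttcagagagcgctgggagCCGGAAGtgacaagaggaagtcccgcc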

How the data were processed

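RNA-seq of 8 whole tumors, 4 shXBP1 and 4 shNT by the genotype in their labels, was analysed from 1 table of the whole series. Per the file headers the authors deposited raw counts and FPKM for each tumor, and their own DESeq2 comparison, which holds an adjusted p-value and a log2 fold change per gene. Per the submitters' processing notes the reads were placed on GRCm38. For the aligner, counter, strand setting and annotation release, nothing is given in the sources used here. Coordinates and coding lengths came from GENCODE M21, where 112 of the 117 members were found, and promoter sequences from RefSeq (GRCm38.p6).

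Counts were filtered with filterByExpr, which left 14907 genes, scaled by TMM factors (0.980 to 1.04), and compared with the two-sided quasi-likelihood test of edgeR 4.0.16 (R 4.3.3, robust, no covariate), with p-values adjusted by Benjamini-Hochberg across the whole table at a threshold of 0.05. Values are CPM with the SD over the tumors of a group, and each log2 fold change, shXBP1 over shNT, has its SE. FPKM were used only to set levels of different genes side by side. A prior count of 2 went into mean log2 CPM. Alternatives used DESeq2 1.42.0 and limma 3.58.1. The procedure was also run on simulated counts. These were drawn independently for each gene, while the genes here vary together by tumor, and no result given here rests on that run.

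The members and gene lists were chosen with earlier results of these data known. Named are all mt-encoded genes; in each complex up to 4 called nuclear subunits and the one with the highest FPKM; isoform pairs; members with 1 tumor far from its group; called members that are no subunit; up to 3 called genes of each list; and Xbp1, Ptprc, Tfam, Polrmt, Nrf1, Gabpa, Esrra, Ppargc1a, Ppargc1b and Hif1a. Other subunits are named for their role in the complex or after their values were seen (Ndufa3, Ndufc2, Uqcrc1, Cyc1, Atp5e and Atp5h, the genes called without 1 tumor, and genes with printed sequences). Marker genes are given by counts and sums. Coa1 and Prorp, which the table does not list under these names, were left out. The names Atp5if1 and Fastkd4 are not in the table either, but these genes were tested under the names Atpif1 and Tbrg4. Tumors of a group differed from each other by a chi-square of at least 15.5 per degree of freedom, so none is a library deposited again.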

Additional observations from a re-analysis of the deposited data

Results flagged for a closer look

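In 15 of 270 groups of 4 tumors examined, 1 tumor lay far from the other 3 relative to the range of the group. For independent groups chance alone would give about 1 in 20. Genes here share the same tumors and are not independent, so the number of such groups cannot be judged against that rate. In shNT tumor 2, 6 subunits lay far below their group. In that tumor Ndufa6 had 63.34 CPM, with the other 3 tumors between 88.48 and 90.31 CPM. Ndufa8 had 36.34 CPM, with the other 3 tumors between 41.25 and 41.91 CPM. Uqcr10 had 43.81 CPM, with the other 3 tumors between 61.07 and 64.13 CPM. Uqcr11 had 30.25 CPM, with the other 3 tumors between 43.81 and 45.77 CPM. Cox7b had 88.64 CPM, with the other 3 tumors between 110.8 and 113.3 CPM. Atp5d had 127.3 CPM, with the other 3 tumors between 153.9 and 158.7 CPM. Far above the group in that same tumor lay Sdhc and the regulator Nrf1. Sdhc had 100.3 CPM, with the other 3 tumors between 91.95 and 93.11 CPM, and Nrf1 had 51.83 CPM, with the other 3 tumors between 47.45 and 47.99 CPM.

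In shXBP1 tumor 4 a pair of genes lay far below. There Ndufa2 had 62.51 CPM, with the other 3 tumors between 99.79 and 104.9 CPM, and Ttc19 had 23.49 CPM, with the other 3 tumors between 25.39 and 25.73 CPM. In shXBP1 tumor 2 Ndufb6 had 25.55 CPM, with the other 3 tumors between 17.28 and 17.9 CPM. In shXBP1 tumor 1 Sdha had 149.9 CPM, with the other 3 tumors between 165.5 and 168.2 CPM. In shNT tumor 1, 3 genes lay far above their group. In that library Sdhd had 131.8 CPM, with the other 3 tumors between 111.1 and 114 CPM. Tfam had 72.6 CPM, with the other 3 tumors between 61.58 and 63.4 CPM. Mus_musculus_newGene_3165 had 11.72 CPM, with the other 3 tumors between 0.2839 and 0.5301 CPM.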

How the results depend on the processing

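The alternatives were DESeq2, limma voom, RLE size factors, library sizes without the mt-encoded genes, no filter, a filter of 10 CPM in 4 libraries, the tumor number as a block, Ptprc as a covariate, an adjusted p of 0.01, and leaving out each tumor. Over all of them complex II had 0 calls in either direction, and RLE size factors and library sizes without the mt-encoded genes changed no call or sign of the 79 tested genes named here. DESeq2 gave 2 higher nuclear subunits, 1 of complex I (Ndufa3) and 1 of complex IV (Cox7a2), and 1 lower one in complex III (Uqcrc1). The filter of 10 CPM, which leaves fewer genes, gave 2 higher (1 in complex I, 1 in complex IV) and 2 lower nuclear subunits, with 0 lower in complex V, and turned the signs of Atp5g2 (0.00909), Sdhc (0.0167), Uqcr10 (0.0292), mt-Atp6 (0.00817), mt-Atp8 (0.00776), mt-Nd1 (0.0044), mt-Nd2 (0.0432) and mt-Nd3 (0.03). Without a filter there were 2 lower nuclear subunits and 0 in complex V, and mt-Nd2 (0.00435) turned. With limma voom Cox4i2 (-0.00802) and Ndufa4l2 (-0.104) turned. At an adjusted p of 0.01 there were 1644 higher and 879 lower genes in all, and 0 lower nuclear subunits, with 0 each in complexes I, IV and V. For these the cause was not tested.

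With Ptprc as a covariate 134 genes were higher and 106 lower in all. Lower were 3 mt-encoded genes, 3 nuclear subunits of complex I, 2 of complex IV and 0 of complex V, and the medians were -0.412 over nuclear and -0.901 over mt-encoded subunits. Signs turned for Atp5g1 (-0.195), Cox17 (-0.43), Cox4i2 (-1.4), Cox6b1 (-0.653), Cox7a2 (-0.417), Cox7b (-0.594), Dmac1 (-0.0937), Hif1a (-0.0981), Mus_musculus_newGene_3165 (-4.17), Myc (0.148), Ndufa2 (-1.03), Ndufa6 (-0.616), Ndufa8 (-0.207), Ndufaf3 (-0.232), Ndufb6 (-0.292), Nrf1 (0.339), Polrmt (0.646), Sdhc (0.124), Sdhd (-0.251), Tbrg4 (0.163), Uqcr11 (-0.682), Uqcrh (-0.662), mt-Co1 (-0.688), mt-Cytb (-0.533), mt-Nd4 (-0.652), mt-Nd5 (-0.381) and mt-Nd6 (-0.943), in log2 fold change.

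The tumor numbers did not pair the samples: same-numbered tumors deviated together with correlations between -0.141 and -0.0247. With the number as a replicate block 1304 genes were lower in all. It left 1 lower nuclear subunit (Cox7a2l), with 0 in complex I and 0 in complex V, and Ndufa4l2 (-0.136) turned.

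Leaving out each tumor in turn gave 1303 to 2401 lower genes in all, 0 to 15 higher and 1 to 6 lower nuclear subunits, and 0 to 1 higher mt-encoded genes. By complex the nuclear counts were 0 to 4 higher and 0 to 2 lower for I, 0 to 1 and 0 to 2 for III, 0 to 4 higher for IV, and 0 to 6 and 0 to 2 for V. Of the 36 named genes called, 28 to 34 kept their call. The upper end of each higher count came without shXBP1 tumor 4. Genes whose sign turned in at least 1 of these fits had log2 fold changes of Atp5g2 -0.096 to 0.0571, Cox4i2 -0.15 to 0.258, Cox8a -0.0106 to 0.0538, Ndufa4l2 -0.476 to 0.302, Ndufa6 -0.014 to 0.176, Sdhc -0.0398 to 0.000155, Sdhd -0.00828 to 0.115, Uqcr10 -0.129 to 0.0745, mt-Atp6 -0.261 to 0.0949, mt-Atp8 -0.258 to 0.107, mt-Co1 -0.0828 to 0.144, mt-Nd1 -0.167 to 0.0949, mt-Nd2 -0.115 to 0.132, mt-Nd3 -0.278 to 0.238, mt-Nd4l -0.311 to 0.0208, mt-Nd5 -0.00833 to 0.167. The 13 members below the filter had too few counts to be tested at this depth.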
